A study of Drosophila melanogaster with 6 samples.

Results

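The cytosolic ribosome of *Drosophila* is built on ribosomal RNA from proteins that are named after the large (RpL) and the small (RpS) subunit, and this account follows the promoters of their genes. Members were all protein-coding genes of the dm6 annotation whose symbol starts with RpL, RpS or RpLP followed by a digit, which gave 92 of 13968 genes: 50 of the large subunit, 38 of the small subunit and 4 named after the stalk proteins. Symbols alone decided which genes belong, but the family was taken up with earlier results of these data known. A symbol, such as one ending in -like, does not by itself show that a gene encodes a ribosomal protein. A promoter peak was a peak that overlapped the 500 bp on either side of the 5′ end of a gene. The 14 genes on X and the single gene on chromosome 4, *RpS3A*, stand beside 19 on 2L, 21 on 2R, 14 on 3L and 23 on 3R.

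The assay was ATAC-seq, in which a transposase inserts adapters into open DNA. It was run on wing imaginal discs, the larval epithelia that form the adult wing and thorax, of 3 genotypes with 2 biological replicates each: *tub>Cdk1-i*, in which *Cdk1*, the kinase that drives entry into mitosis, was knocked down by RNA interference, *tub>fzr*, in which *fzr*, an activator of the anaphase-promoting complex that induces endocycles, was expressed, and the control *tub>GFP*. All animals carried *tub-Gal4* and a temperature-sensitive Gal80 (*tub-Gal80ts*), which acts in all cells, spent 7 days at 17 °C with the driver repressed and 2 days at 31 °C with the transgene expressed, and the discs of many larvae were pooled for a library. The labels do not say which cells of a pooled disc responded, and a pool cannot tell fewer open cells from less open DNA per cell.

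A ribosome contains most of its proteins in a single copy, so their genes are expressed together and at a high level in growing tissue. In *Drosophila*, loss of 1 copy of many of them gives the Minute phenotype of slow development and thin bristles, and cells with a Minute mutation are eliminated by their neighbours in the wing disc. Transcription of these genes typically starts at a pyrimidine-rich initiator, the TCT motif, in place of the usual initiator, and many of the promoters carry the DNA replication-related element (DRE), which is bound by the factor DREF.

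The sequence around the 5′ end is shown for 7 members, to set promoters of members with highly ranked peaks beside promoters where no list held a peak. Each runs 5′ to 3′ on the strand of its gene, with 80 bases before the annotated 5′ end and 20 bases from it on, read from the RefSeq genome of the dm6 build. Capitals mark the core of the TCT motif (CTTTT, starting within 5 bases of the 5′ end, on the strand of the gene), the DRE (TATCGATA, either strand) and, in *RpL40*, a GAGA element (GAGAG, here on the other strand as CTCTC, whose last base is the first of CTTTT). *RpL26* (chr3L:18898795-18898894, plus strand), *RpL3* (chr3R:11221814-11221913, plus strand), *RpL23A* (chr3L:1668635-1668734, minus strand) and *RpS19b* (chr3R:23933511-23933610, minus strand) were among the 5 members with the highest mean percentile. The peak summits assigned to *RpL26* and *RpS19b* lay outside the sequence shown. *RpL40* (chr2L:4227619-4227718, plus strand), *RpL8* (chr3L:2587376-2587475, plus strand) and *RpS14a* (chrX:7933662-7933761, plus strand) had no peak in any library. These 3 were picked because they hold the TCT core, which 5 of the 21 members without a peak have. Its presence in all 3 was thus fixed by the choice.
RpL26: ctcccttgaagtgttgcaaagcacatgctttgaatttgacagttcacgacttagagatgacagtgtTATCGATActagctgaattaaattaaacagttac
RpL3: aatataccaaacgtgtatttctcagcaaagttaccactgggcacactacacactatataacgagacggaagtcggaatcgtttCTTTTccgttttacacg
RpL23A: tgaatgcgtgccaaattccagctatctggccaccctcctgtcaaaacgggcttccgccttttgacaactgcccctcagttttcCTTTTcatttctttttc
RpS19b: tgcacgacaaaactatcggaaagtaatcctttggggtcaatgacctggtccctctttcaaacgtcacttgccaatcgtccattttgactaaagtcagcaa
RpL40: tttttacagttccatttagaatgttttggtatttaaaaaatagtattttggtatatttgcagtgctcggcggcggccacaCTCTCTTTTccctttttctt
RpL8: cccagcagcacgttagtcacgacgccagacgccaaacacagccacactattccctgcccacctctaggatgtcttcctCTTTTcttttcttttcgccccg
RpS14a: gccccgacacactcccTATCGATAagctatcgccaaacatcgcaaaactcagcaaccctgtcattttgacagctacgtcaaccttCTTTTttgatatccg

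Labels and list names disagree for 4 libraries: a list named for *fzr* is labelled *Cdk1-i*, and the reverse. The labels were followed, and under the list names every value of one genotype would belong to the other. The lists held 36617 and 36100 peaks for *Cdk1-i*, 33335 and 27119 for *fzr*, and 36715 and 35404 for *GFP*. They give no read counts, so sequencing depth is unknown. The library *fzr* replicate 2 stood apart, with the shortest list, the longest minimum peak length (197 bp, against 143 to 169 bp elsewhere) and a peak at 32.8% of the other genes' promoters on X, against 38.8 to 41.2% in the other 5. Of 8 wing disc markers, 6 had a promoter peak in all 6 lists, *sd* had one in 2 and *hth* in none, while 0 of 2 tracheal, 0 of 3 fat body and 0 of 2 germline markers did so. Both *Hml* and *srp*, of 3 haemocyte markers, *Him*, of 3 myoblast markers, and *elav*, of 2 neuronal markers, had a peak in all 6. At the targeted genes, the *Cdk1* promoter stood at percentiles 32.6 and 28.9 in *Cdk1-i*, 52.3 and 74.2 in *fzr*, and 75.02 in *GFP* replicate 2, with no peak in *GFP* replicate 1. The *fzr* promoter stood at 63.6 and 58.5 in *Cdk1-i*, 63.9 and 64.5 in *fzr*, and 93.0 and 70.1 in *GFP*, and neither value measures RNA.

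Promoter peaks were more common at ribosomal protein genes than at other genes. A peak was present in all 6 lists at 45 of 92 members (48.9%), in 1 to 5 lists at 26 (28.3%) and in none at 21 (22.8%). Of the other 13876 protein-coding genes, 25.3% had a peak in all 6 lists and 49.3% in none. Among genes of related function, 23 of 52 translation initiation and elongation factors (44.2%) had a peak in all 6 lists, but only 15 of 73 mitochondrial ribosomal protein genes (20.5%). The subunits were alike in this count, with 24 of 50 large and 18 of 38 small subunit genes in all 6 lists. Within single libraries, 54 and 59 members had a peak in *Cdk1-i*, 62 and 56 in *fzr*, and 54 and 57 in *GFP*. These are 61.4% ± 3.84, 64.1% ± 4.61 and 60.3% ± 2.31 (SD, n = 2 each), so the genotypes overlapped. The other genes had a peak in 36.6 to 37.9% of cases in every library.

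**Figure D1:**
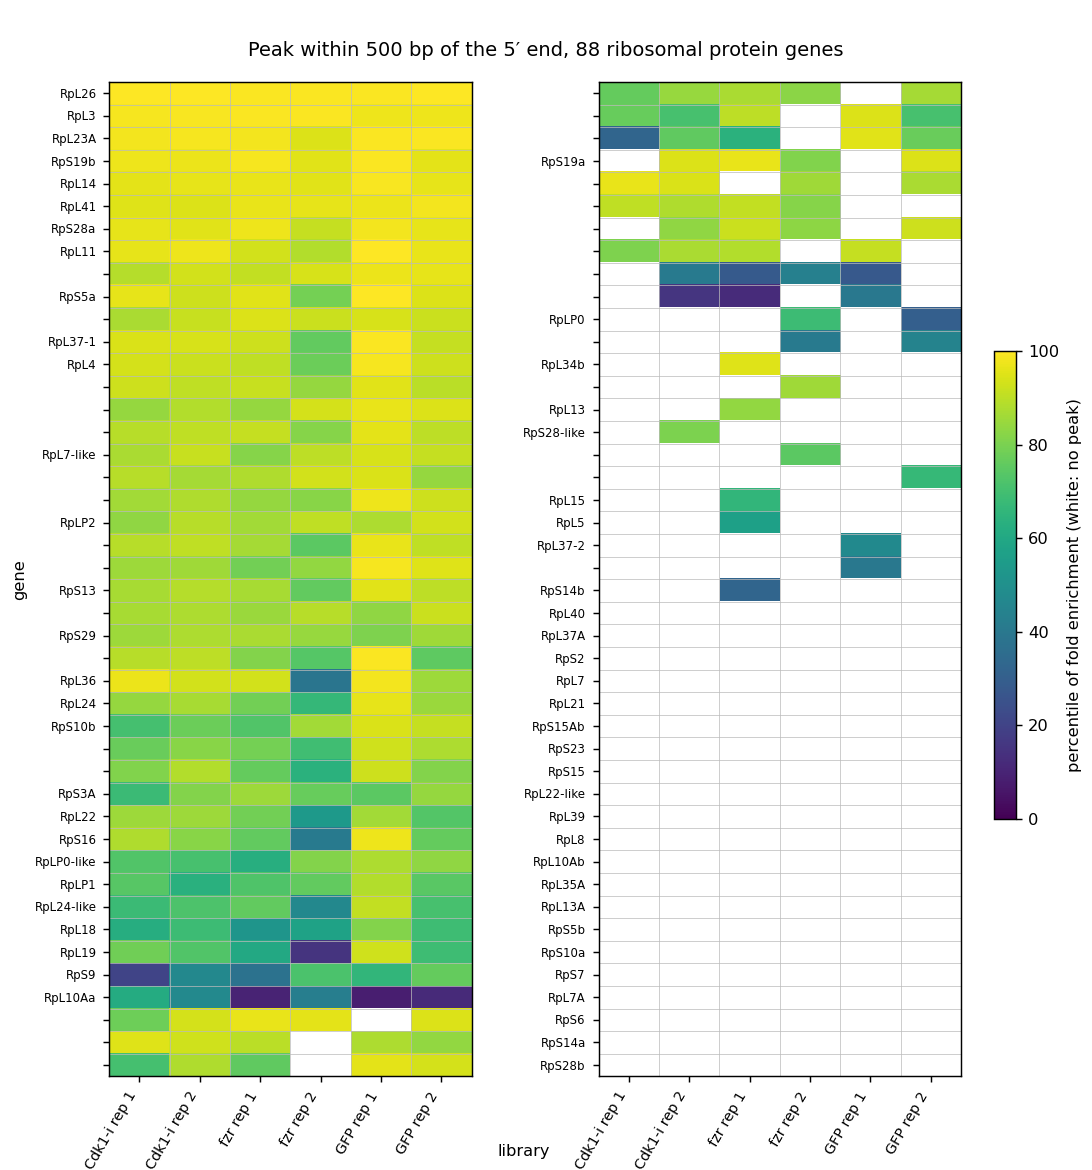
Each row is 1 of 88 ribosomal protein genes and each column 1 library, and colour gives the percentile of the promoter peak's fold enrichment within its list, white where the list has no peak. Genes named in the text are labelled. Rows are ordered by the number of libraries with a peak and then by mean percentile; 41 of those drawn have a peak in all 6 libraries and 21 have none.

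The stalk of the large subunit recruits elongation factors and is formed by the products of *RpLP0*, *RpLP1* and *RpLP2*. *RpLP1* and *RpLP2* had a peak in all 6 lists, at percentiles 73.9 and 63.6 in *Cdk1-i*, 72.3 and 76.1 in *fzr*, and 88.6 and 74.3 in *GFP* for *RpLP1*. *RpLP2* stood at 83.4 and 89.4 in *Cdk1-i*, 86.2 and 90.6 in *fzr*, and 87.7 and 93.0 in *GFP*. *RpLP0*, which anchors the stalk, had a peak only in *fzr* replicate 2 (percentile 68.6) and *GFP* replicate 2 (30.4), so its presence did not follow genotype. For *RpLP1* both *Cdk1-i* values lay below the control and *fzr* overlapped it, and *RpLP2* overlapped it in both genotypes. The members with no peak in any list included *RpS6*, whose product is phosphorylated by S6 kinase, *RpL40*, which encodes a fusion with ubiquitin, and *RpS2*, *RpS15*, *RpS23*, *RpS7*, *RpL7*, *RpL7A*, *RpL8*, *RpL13A*, *RpL21*, *RpL35A*, *RpL37A* and *RpL39*. The nearest edge of any peak to their 5′ ends was 627 bp away for *RpS28b*, the member just outside the window, and 8987 bp for *RpS2*, with a median of 1695 bp over the 21. Just inside the window, the nearest edge was 491 bp away for *RpL37-2* and 497 bp for *RpS28-like*. A peak covered the 5′ end itself in all 6 lists for 30 members and in at least 1 list for 62.

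Several ribosomal proteins of *Drosophila* are encoded by a pair of genes, of which often 1 copy is expressed widely and the other in the germline. Of 27 duplicated or -like members, 11 had a peak in all 6 lists and 8 had none, against 34 and 13 of the 65 single genes. The copies of a pair mostly differed from each other. A peak was found in all 6 lists at *RpS5a*, *RpS10b* and *RpL22* and in none at *RpS5b*, *RpS10a* and *RpL22-like*. Likewise, *RpL37-1* had a peak in 6 lists and *RpL37-2* in 1, and *RpS28a* in 6 and *RpS28b* in none. For *RpS19* and *RpL10A* the copies with a peak in all 6 lists were *RpS19b* and *RpL10Aa*, while *RpS19a* had a peak in 4 lists and *RpL10Ab* in none. At *RpS19b* and *RpS28a*, however, the summit lay nearer to the start of another gene in every library. No peak edge came nearer than 301 bp to the 5′ end of *RpL10Aa*. At *RpS14*, *RpS15A* and *RpL34* neither copy had a peak in all 6 lists. Both *RpL24* and *RpL24-like* did, but -like genes were grouped by symbol alone, and whether they are second copies was not examined. Short reads can be lost where copies are identical. In the 1000 bp around the 5′ end, all runs of 50 bases were unique in the genome for the median member, and under 90% were for 2 members, *RpS15Ab* (86.2%) and *RpS14a* (89.8%), both without a peak in any list. The part of this in the missing peaks was not tested.

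Members that had a peak in only some lists carried narrow peaks of high rank. Over the 26 members with a peak in 1 to 5 lists, the median peak was 220 bp wide and stood at percentile 83.5, while the other genes with a peak in 1 to 5 lists had a median width of 249 bp at percentile 57.4. Of the 72 peaks of these members, 45 (62.5%, against 50.3% for the other genes with a peak in 1 to 5 lists) were shorter than 250 bp, and 34 (47.2%) were both shorter than 250 bp and above the median of their list, against 25.5% for the other genes. For members in all 6 lists the medians were 396.5 bp and percentile 89.4, and 12.96% of 270 peaks were shorter than 250 bp, against 13.9% for the other genes. The short peaks lie near the shortest length that each list holds, and a shorter one is not listed whatever its height. A single list held the peak of 11 members, which was *fzr* replicate 1 for 5 of them (*RpL5*, *RpL13*, *RpL15*, *RpL34b* and *RpS14b*), the list with the shortest minimum length. At *RpL34b* that peak was 146 bp wide, at percentile 95.1, with its summit at -24 bp from the 5′ end. *RpL13* had 145 bp at percentile 83.7 and *RpL15* 145 bp at percentile 65.8, which is below the minimum length of the other 5 lists (160 to 197 bp) in all 3 cases. The part of the minimum lengths in the absence of peaks from other lists was not tested, and the peak of *RpL5*, of 165 bp, was longer than the minimum of both *Cdk1-i* lists, where it had none.

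Where members had peaks, these ranked high. The percentile of a peak is the share of its own list at or below its fold enrichment over local background. The median over members with a peak was 87.1 and 88.5 in *Cdk1-i*, 86.6 and 82.1 in *fzr*, and 95.4 and 89.96 in *GFP*. The other genes with a peak had medians of 81.5 and 81.5 in *Cdk1-i*, 82.2 and 77.6 in *fzr*, and 84.1 and 81.4 in *GFP*. Members lay above the other genes in every library. The top decile of a list took in 35.2% and 42.4% of member peaks in *Cdk1-i*, 38.7% and 30.4% in *fzr*, and 70.4% and 49.1% in *GFP*. For the other genes these shares were 34.8% and 33.9% in *Cdk1-i*, 34.8% and 26.9% in *fzr*, and 39.0% and 33.0% in *GFP*. In *Cdk1-i* replicate 1 the share of members was thus close to that of the other genes. Among promoters with a peak in all 6 lists, the members' medians were 87.4 and 89.4 in *Cdk1-i*, 86.4 and 82.3 in *fzr*, and 96.1 and 90.6 in *GFP*, against 88.2 and 88.1, 87.0 and 83.0, and 90.3 and 87.8 for the other genes. In that selection members exceeded the other genes in both *GFP* libraries and in *Cdk1-i* replicate 2 but not in the remaining 3. The 15 mitochondrial ribosomal protein genes with a peak in all 6 lists had medians of 90.5 and 91.1 in *Cdk1-i*, 93.6 and 84.9 in *fzr*, and 93.9 and 90.8 in *GFP*, above the members in all libraries but *GFP* replicate 1. The 23 translation factors lay between 77.8 and 94.3, so a high rank was not particular to members.

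**Figure D2:**
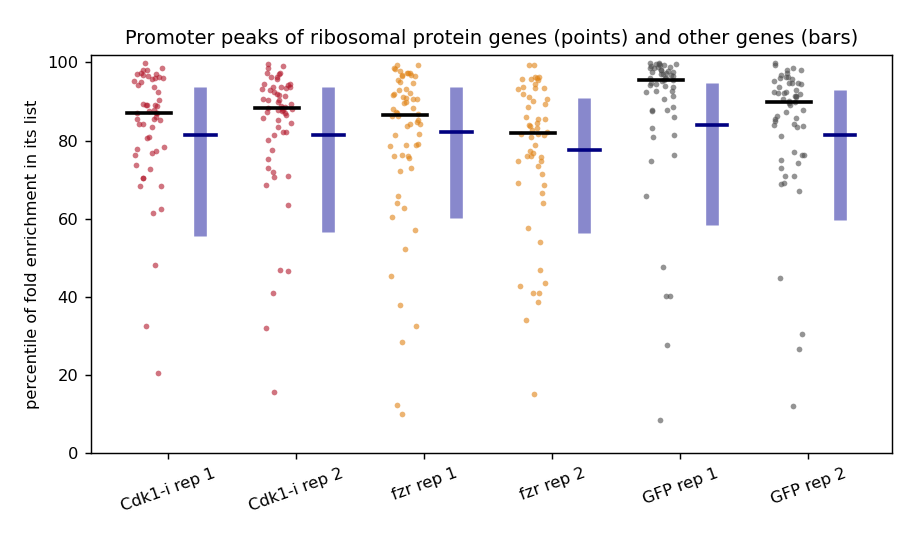
Points are the promoter peaks of ribosomal protein genes in each library and the black line is their median; the bar beside them spans the quartiles of the other protein-coding genes with a peak, with their median as a line. The vertical axis is the percentile of fold enrichment within the list; member medians run from 82.1 in fzr replicate 2 to 95.4 in GFP replicate 1.

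*RpL26*, *RpL3*, *RpL23A* and *RpS19b* were among the 5 members with the highest mean percentile. *RpL26*, whose product lies at the exit of the peptide tunnel, stood at 99.8 and 99.7 in *Cdk1-i*, 99.4 and 99.4 in *fzr*, and 99.5 and 99.8 in *GFP*. Its summit lay at -538 to -513 bp from the *RpL26* 5′ end (negative is upstream), nearer to the start of the divergent gene *CG3902*, which is 582 bp away, and so outside the sequence shown. *RpL3*, which contributes to the peptidyl transferase centre, stood at 98.7 and 99.2 in *Cdk1-i*, 99.3 and 99.4 in *fzr*, and 97.5 and 97.3 in *GFP*, with its summit at -94 to -45 bp from its own 5′ end. Both genotypes lay above both controls at *RpL3*. *RpL23A*, a protein of the tunnel exit where the signal recognition particle docks, stood at 98.2 and 98.5 in *Cdk1-i*, 98.4 and 94.6 in *fzr*, and 99.6 and 99.3 in *GFP*. At *RpL23A*, both genotypes lay below both controls. The peak assigned to *RpS19b* had its summit at -612 to -546 bp, again nearer to a divergent neighbour, *CG5854*.

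At the other end, *RpL10Aa*, *RpS9*, *RpL19* and *RpL18* were among the 5 lowest mean percentiles of the 45 members in all 6 lists. *RpL10Aa*, a paralogue of the gene for the L1 stalk protein, stood at 61.4 and 47.0 in *Cdk1-i*, 10.1 and 42.9 in *fzr*, and 8.6 and 12 in *GFP*. Its peak lay towards the edge of the window, with summits at -556 to -406 bp from the 5′ end. *RpS9*, a small subunit protein that binds ribosomal RNA early in assembly, stood at 20.5 and 46.6 in *Cdk1-i*, 37.9 and 71.5 in *fzr*, and 65.8 and 76.3 in *GFP*. The *Cdk1-i* values of *RpS9* lay below both controls, while *fzr* overlapped them.

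Ranks of members were lower in both genotypes than in the control, but the control libraries also differed from each other. Averaged over 2 libraries, the median percentile of members was 87.8 ± 0.958 in *Cdk1-i*, 84.3 ± 3.18 in *fzr* and 92.7 ± 3.86 in *GFP* (SD, n = 2 each). Relative to *GFP*, *Cdk1-i* differed by -4.90 points and *fzr* by -8.38 points, against -1.22 and -2.81 points for the other genes. Translation factors differed by -3.06 and -7.59 points and mitochondrial ribosomal protein genes by -0.63 and -7.53 points. The value for *fzr* was thus similar in all 3 sets over promoters with a peak in the library. It was not similar over promoters with a peak in all 6 lists. There, translation factors differed by -7.65 points in *fzr*, and members by more. Mitochondrial ribosomal protein genes differed by -3.13 points, against -3.98 for the other genes. For members with a peak in the library, both medians of each genotype lay below both of the control. No test over members was made, since earlier results of these data were known when the gene family was taken up, and 2 libraries against 2 cannot give a two-sided exact permutation p below 1 in 3. Without *GFP* replicate 1, in which 37 of 45 members (82.2%) ranked above *GFP* replicate 2 against 58.0% of the other promoters, the differences were -2.17 and -5.65 points. On another scale, log2 fold enrichment over the list's median, they were -0.21 for *Cdk1-i* and -0.35 for *fzr*, and without *GFP* replicate 1 they were 0.01 and -0.13, so the direction for *Cdk1-i* was lost on that scale. The other genes moved by 0.06 and 0.03 on it. With autosomal promoters alone, the differences in median percentile were -4.98 and -7.43 points. The differences were no smaller for the 36 members with a peak in all 6 lists whose summit was nearest to their own start in every library, at -5.14 and -10.8 points.

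Single promoters were compared with limma on the percentiles of the 3550 promoters with a peak in all 6 lists, 45 of them members. The remaining 47 members were not tested. At an adjusted p under 0.05, 0 members were called for *Cdk1-i* minus *GFP*, and 0% of all promoters were. For *fzr* minus *GFP* and for *Cdk1-i* minus *fzr*, 0 members and 0% of all promoters were called as well, and the lowest adjusted p of a member was 0.854, 0.540 and 0.579 in these 3 comparisons. At an unadjusted p under 0.05 there were 6, 9 and 1 members, among 193, 321 and 240 promoters. In simulated percentiles with 200 promoters moved by 20 points between *Cdk1-i* and *GFP*, 82 were called, so changes of this size can be missed. The difference was below 0 at 37 of 45 members for *Cdk1-i* minus *GFP* (82.2%, against 50.1% of all promoters), with a median of -2.85 points against -0.00. For *fzr* minus *GFP* it was below 0 at 38 (84.4%, against 69.6%), with a median of -7.24 against -2.27 points. For *Cdk1-i* minus *fzr* it was below 0 at 13 (28.9%, against 29.9%), with a median of 1.80 against 1.99 points. The first 2 comparisons share their control libraries.

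**Figure D3:**
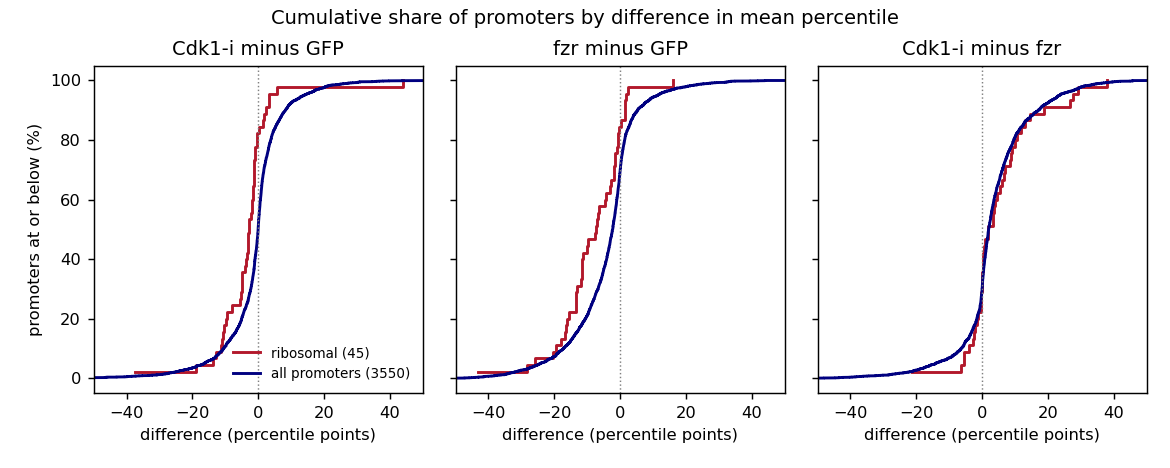
Each panel gives, for 1 comparison, the cumulative share of promoters (vertical axis, %) at or below a difference in mean percentile (horizontal axis, points), for 45 ribosomal protein genes and all 3550 promoters with a peak in all 6 lists. The member curve lies left of all promoters at 0 in the comparisons with GFP, where 82.2% and 84.4% of members are below 0, and close to it in Cdk1-i minus fzr.

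Members whose 2 libraries of a genotype lay entirely below both controls numbered 17 of 45 for *Cdk1-i*, where 22.1% of all promoters did so, and 2 lay entirely above, against 19.1%. For *fzr*, 22 of 45 lay entirely below, against 28.4% of all promoters, and 1 above, against 8.06%. Between the 2 genotypes, *Cdk1-i* lay entirely above *fzr* at 16 members, where 36.1% of all promoters did so. Of the 45, 14 lay below the control in both genotypes, where 13.5% of all promoters did so, 3 in *Cdk1-i* while overlapping in *fzr* (8.20%), 8 in *fzr* while overlapping in *Cdk1-i* (11.9%), and 18 overlapped it in both (44.2%). Both genotypes are set against the same control libraries here. Those below in both included *RpS13*, *RpL41*, *RpL23A*, *RpL18* and *RpLP0-like*. *RpL3* lay above in both, and *RpL10Aa* in *Cdk1-i*.

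The largest differences in *Cdk1-i* did not pass the test. *RpS9* differed by -37.5 ± 14.7 points in *Cdk1-i* minus *GFP* (SE, limma adjusted p = 0.863) and *RpL10Aa* by 43.9 ± 13.3 (adjusted p = 0.854). *RpS10b*, of the small subunit near the entry of the mRNA channel, stood at 70.5 and 77.5 in *Cdk1-i*, 72.9 and 86.0 in *fzr*, and 94.1 and 91.4 in *GFP*. It differed from *GFP* by -18.8 ± 6.52 points in *Cdk1-i* and by -13.3 ± 6.52 in *fzr*, with both genotypes below the control. *RpLP0-like*, a relative of the stalk base, stood at 72.7 and 71.1 in *Cdk1-i*, 62.8 and 81.5 in *fzr*, and 87.8 and 83.4 in *GFP*. It was lower in both genotypes without overlap, with differences of -13.7 and -13.4 points, at limma adjusted p of 0.896 and 0.552. *RpS29* and *RpL22* had the largest positive differences in *Cdk1-i* after *RpL10Aa*, of 3.40 ± 4.59 and 5.63 ± 9.68 points, both smaller than their SE. *RpS29* was also among the 3 highest in *fzr* minus *GFP*, with 2.53 ± 4.59 points.

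In *fzr* minus *GFP* the largest negative values belonged to *RpL19*, *RpS16* and *RpL36*, and 1 library contributed most to them. *RpL19*, a protein of a bridge between the subunits, stood at 78.5 and 72.9 in *Cdk1-i*, 60.4 and 15.04 in *fzr*, and 92.8 and 68.8 in *GFP*. *RpL36* on X stood at 96.9 and 93.2 in *Cdk1-i*, 93.3 and 38.7 in *fzr*, and 98.1 and 85.4 in *GFP*. *RpS16* stood at 87.9 and 82.3 in *Cdk1-i*, 76.1 and 40.9 in *fzr*, and 97.4 and 76.3 in *GFP*. No peak edge came nearer than 384 bp to the *RpS16* 5′ end, and the start of another gene lay 78 bp from it. In all 3, *fzr* replicate 2 was far below every other library. At *RpL19*, *fzr* replicate 1 (60.4) also lay below both controls, and at *RpS16* it did so narrowly (76.1 against 76.3). At *RpL36* it lay between the controls. At *RpL36* the summit also lay elsewhere in that library, at -180 bp, against 335 to 375 bp downstream in the other 5. The differences from *GFP* were -43.0 ± 16.2, -25.7 ± 16.4 and -28.3 ± 12.97 points for *RpL19*, *RpL36* and *RpS16*, and those of *Cdk1-i* minus *fzr* were 38.0, 29.0 and 26.6 points, the last 3 at limma adjusted p = 0.579. Without *fzr* replicate 1, 6 members were called in *fzr* minus *GFP*, where 7.19% of 3645 promoters were called, and 4 in *Cdk1-i* minus *fzr*, where 7.46% were. The 6 were *RpL4*, *RpL11*, *RpL19*, *RpL23A*, *RpL36* and *RpS5a*, all lower in *fzr*, with differences of -65.7 to -4.84 points (limma, adjusted p = 0.029 to 0.046). That fit sets *fzr* replicate 2 alone against the other genotypes and assumes that it varies as they do, and these calls were absent without any other library.

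Peaks of members and of the other genes were slightly narrower in *Cdk1-i* than in the control, and *fzr* overlapped it. The median width was 370 and 369 bp in *Cdk1-i*, 304 and 397.5 bp in *fzr*, and 385 and 379 bp in *GFP*, against 328 and 339, 305 and 449, and 351 and 373 bp for the other genes. The replicates of *fzr* lay on both sides of the control, and members differed from it by -31.2 bp, by 15.5 bp without replicate 1 and by -78.0 bp without replicate 2. Both *Cdk1-i* medians of members lay below both controls, with a difference of -12.5 bp, and no test of it was made. For the other genes the mean of the medians fell further, from 362.0 bp in *GFP* to 333.5 bp in *Cdk1-i*. Large subunit members went from 398.0 to 370.25 bp, but small subunit members from 366.5 to 371.75 bp. *RpS3A*, *RpL36* and *RpL24-like* had the narrowest mean peaks of the 45, and *RpS3A* measured 186 and 191 bp in *Cdk1-i*, 204 and 222 bp in *fzr*, and 188 and 215 bp in *GFP*. *RpS19b* and *RpL14* were among the 3 widest, with 993 and 995 bp in *Cdk1-i*, 1065 and 1112 bp in *fzr*, and 1034 and 1060 bp in *GFP* at *RpS19b*. *RpL3* was narrower in replicate 1 of each genotype, with 232 and 464 bp in *Cdk1-i*, 262 and 425 bp in *fzr*, and 270 and 474 bp in *GFP*.

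Summits of member peaks lay close to the 5′ end. Relative to it, the median position was -53 and -29 bp in *Cdk1-i*, -38 and -48.5 bp in *fzr*, and -28 and -39 bp in *GFP*, while those of the other genes lay at -116 to -86 bp. For translation factors it was 0 and 0 bp in *Cdk1-i*, -16 and -20 bp in *fzr*, and 117 and 39 bp in *GFP*. A median summit near the start was thus not particular to members. Between 51.9 and 66.1% of member peaks had their summit within 100 bp of the 5′ end, against 27.2 to 36.1% for the other genes. This was a property of most members but not of all: the summit was nearest to the gene's own start in every library with a peak for 55 of 71 members, and nearer to another start in every library for 10, among them *RpL26*, *RpS19b*, *RpS28a* and *RpL7-like*. Neighbouring starts are close, since 62.0% of members had another protein-coding start within 1000 bp, against 40.6% of other genes. Many member peaks also fell within the window of another gene: 28 of 54 and 30 of 59 in *Cdk1-i*. In *fzr* they were 31 of 62 and 29 of 56, and in *GFP* 27 of 54 and 29 of 57. The matching share for the other genes was not counted. Such peaks cannot be divided between the genes. No peak was shared between members.

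**Figure D4:**
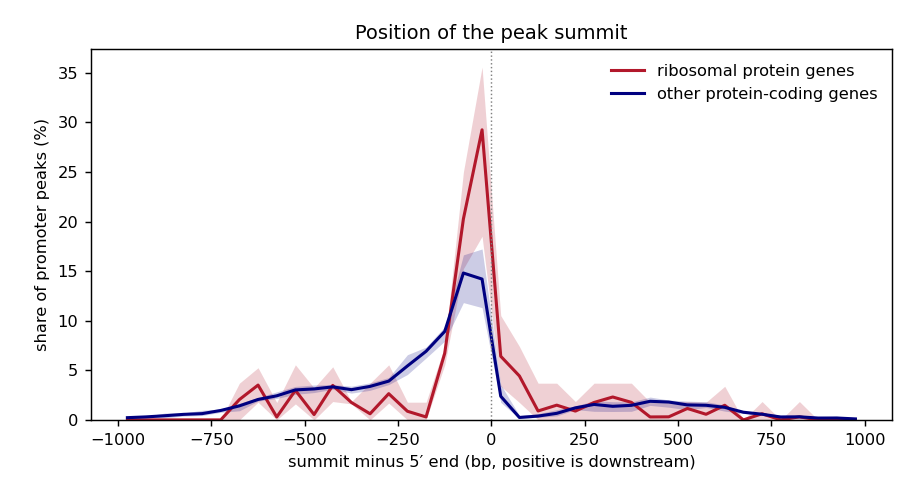
The share of promoter peaks (vertical axis, %) is plotted by the distance of the summit from the 5′ end in bins of 50 bp, for ribosomal protein genes and for other protein-coding genes; lines are means over 6 libraries and bands span the lowest to the highest library. Member summits gather within 100 bp upstream of the 5′ end, where the line of the other genes lies lower.

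Some promoter motifs were more frequent in members than in the other genes, although each was found in a minority of them. In the 250 bases before and 50 bases after the 5′ end, the TCT core was found near the start of 13 of 92 members (14.1%), against 1.85% of the other genes, 1.37% of mitochondrial ribosomal protein genes and 5.77% of translation factors. A shorter core, CTTT in the same place, was found at 31 members (33.7%), against 5.45% of the other genes. The DRE occurred in 28 members (30.4%), against 9.22% of the other genes, 20.5% of mitochondrial ribosomal protein genes and 26.9% of translation factors. Motif 1 (core GGTCACAC, either strand) occurred in 14 members (15.2%), against 7.64% of the other genes. The TATA box (TATAAA, either strand) was about as frequent in members as elsewhere, at 47.8% against 45.8%, and the GAGA element was less frequent, at 17.4% against 29.8%, with 16.4% in mitochondrial ribosomal protein genes and 15.4% in translation factors. Median GC content was 36.3% in members and 38.0% in the other genes. The TCT core, as counted here, was not more frequent where a peak was present. It was found in 5 of 45 members with a peak in all 6 lists, 3 of 26 with a peak in 1 to 5 lists, and 5 of 21 with none. For the DRE these counts were 16 of 45, 6 of 26 and 6 of 21. A match is a run of letters in an annotated window and no evidence of binding. A TCT motif with other letters, or more than 5 bases from the annotated 5′ end, was not counted, so its share can be too low.

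**Figure D5:**
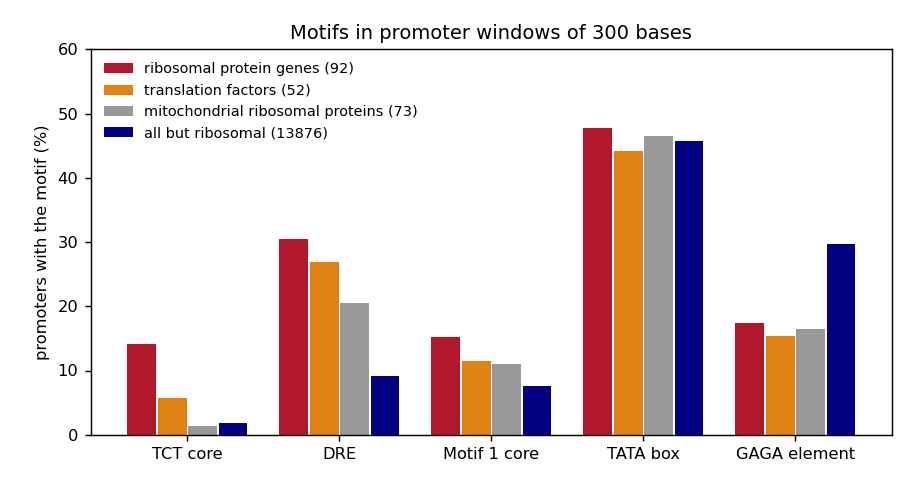
Bars give the share of promoters (vertical axis, %, from 0) that hold each motif in the 300 bases around the 5′ end, for ribosomal protein genes, translation factors, mitochondrial ribosomal protein genes and all genes but the ribosomal protein genes, with the number of promoters in the legend. The TCT core and the DRE were found in 14.1% and 30.4% of ribosomal protein genes, above 1.85% and 9.22% of the other genes.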

How the data were processed

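ATAC-seq peak lists of 6 libraries were used, 2 for each of 3 genotypes, grouped by their labels. Per the study's methods, the authors ran the nf-core/atacseq pipeline, with alignment to dm6 by BWA-MEM, removal of blacklisted regions and peak calling by MACS2 in each library. The deposited fold enrichment over local background is a ratio. The deposited −log10 p and −log10 q are those of MACS2, and the deposited score is 10 times −log10 q. The authors compared read counts with DESeq2, which was not done here because the lists hold no counts. Read depth is therefore unknown and no counting interval was computed.

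Gene ends came from the Ensembl annotation of dm6 and sequences from the RefSeq genome, whose arm lengths no listed peak exceeded. Of several peaks in a window of 500 bp on either side of a 5′ end, the highest by fold enrichment was taken and given its percentile within its list. Percentiles of 3550 promoters were fitted with limma 3.58.1 (R 4.3.3; all 6 libraries, 3 groups, moderated variance with a trend, 3 residual degrees of freedom), with Benjamini-Hochberg adjustment at 0.05. The fit was tested on simulated normal values, which were not bounded as percentiles are. Of 200 promoters, 31 moved by 10 points and 82 moved by 20 points were recovered, with 0 and 5 false calls. Python 3.11.15, NumPy 2.4.6, pandas 2.3.3 and Matplotlib 3.10.9 were used.

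The members, lists and tests were chosen with earlier results of these data known. The genes named were those with the 5 highest and 5 lowest mean percentiles and the 3 largest differences in each direction among members in all lists, the 3 widest and 3 narrowest, members without a peak in some list, and duplicated pairs. Values of 4 members are not reported here by name, although they enter every count and median. Others were named after their values were seen, among them the stalk genes. Sequences were printed for the leading members and for 3 members without a peak that hold the TCT core, none from 2R. The short TCT core and the uniqueness of 50-base runs were added after the data were seen. Replicates were biological per the study's methods, and p-values measure the spread between these libraries.

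Alternatives were a minimum −log10 q of 5, 27119 peaks in every list, a window of 250 bp, peaks covering the 5′ end, any transcript start, ranking by −log10 p, peaks of at least 197 bp, autosomes, exchanged labels, each library left out, log2 fold enrichment over the list median, no filter on presence, a replicate block and no trend. Members with a peak in all lists, those nearest their own start and the members' medians on the log2 scale were added after the data were seen.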

Additional observations from a re-analysis of the deposited data

How the results depend on the processing

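The count of 45 members with a peak in all lists ran from 30 (peak over the 5′ end itself) to 45 under the alternatives that keep all libraries, and from 45 to 49 with 1 library left out. The difference in median percentile stayed below 0 in every alternative listed for it, for both genotypes. With the *Cdk1-i* and *fzr* labels exchanged, it was -8.38 points for *Cdk1-i* minus *GFP* and -4.90 for *fzr* minus *GFP*. With 1 library left out it ran from -7.63 to -2.17 points for *Cdk1-i* and from -11.1 to -5.65 for *fzr*, the values nearest 0 being those without *GFP* replicate 1. With 1 library left out, median width in *fzr* minus *GFP* ran from -78.0 to 15.5 bp and changed sign without *fzr* replicate 1. In *Cdk1-i* minus *GFP* it ran from -15.5 to -9.50 bp with 1 library left out and from -31.2 to -6.0 bp under the other alternatives. The mean over libraries of the median summit position was -39.2 bp, -28.8 bp when the peak had to cover the 5′ end, and from -41.5 to -36.5 bp with 1 library left out. No promoter was called in any comparison under the alternatives that keep all libraries. With 1 library left out, limma called 0 promoters and 0 members in *Cdk1-i* minus *GFP*, 0 to 262 promoters and 0 to 6 members in *fzr* minus *GFP*, and 0 to 272 promoters and 0 to 4 members in *Cdk1-i* minus *fzr*, all nonzero counts arising without *fzr* replicate 1. The cause of these changes was not tested.

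The labels number the replicates without saying that a number marks a shared batch. Deviations of same-numbered libraries correlated across 3550 promoters at 0.12 (*Cdk1-i* and *fzr*), 0.203 (*Cdk1-i* and *GFP*) and 0.342 (*fzr* and *GFP*), and promoters are not independent. A fit with a replicate block called 0 promoters in each comparison. Percentiles near 100 cannot rise far, the lists omit peaks under 143 to 197 bp, and unknown depth limits what the absence of a peak can show.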
